A study of Mus musculus with 2 samples.

Results

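The Mir148 and Mir152 family is a small group of microRNA (miRNA) genes, Mir148a, Mir148b and Mir152, whose 3p arms carry the same seed. Its members were taken by gene symbol from the annotation and not by measured values, though earlier results of these data were known. All 3 were found among 2202 annotated miRNA genes. The reads came from gastrocnemius, a calf muscle, of B6CASTF1/J mice, an F1 hybrid, all female adults 18 to 20 months old. There is 1 group of 2 libraries, numbered in the labels as biological replicates 2 and 1, and no treatment or genotype contrast. Both libraries carry the same donor entry and separate tissue entries, which does not settle whether they come from different animals. Technical and biological differences between them therefore cannot be told apart.

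A miRNA is cut from a hairpin as a short RNA that guides a silencing protein to messenger RNAs, mainly through pairing of its seed, bases 2 to 8, with sites in their 3' untranslated regions. Members of a seed family can therefore act on overlapping sets of targets. In human and mouse cells, miR-148a is known for lowering the cholesterol exporter ABCA1, and in human cells miR-148a and miR-152 are known for lowering the DNA methyltransferase DNMT1. In mouse muscle precursor cells, miR-148a has been described as favouring differentiation.

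The hairpins are shown because the deposited counts are per hairpin gene, so both arms of a member are counted together. Sequences are from RefSeq on GRCm38.p6, the same build as mm10, 5′ to 3′, and all 3 members matched by symbol. Capitals mark the annotated mature arms, the 5p arm before the loop and the 3p arm after it. Mir148a (ENSMUSG00000065505.1) lies at chr6:51269812-51269910 on the minus strand, Mir148b (ENSMUSG00000065560.1) at chr15:103285125-103285221 on the plus strand and Mir152 (ENSMUSG00000065515.1) at chr11:96850393-96850465 on the plus strand.
Mir148a hairpin: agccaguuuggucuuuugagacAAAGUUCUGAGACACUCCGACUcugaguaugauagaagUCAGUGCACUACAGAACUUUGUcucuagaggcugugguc
Mir148b hairpin: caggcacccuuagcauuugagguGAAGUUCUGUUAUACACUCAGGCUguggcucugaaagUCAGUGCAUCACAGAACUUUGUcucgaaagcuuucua
Mir152 hairpin: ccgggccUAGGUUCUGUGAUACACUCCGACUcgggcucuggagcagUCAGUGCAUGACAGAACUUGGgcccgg

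The 3p arms define the family, and here capitals mark the seed, CAGUGCA.
miR-148a-3p: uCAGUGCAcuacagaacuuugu
miR-148b-3p: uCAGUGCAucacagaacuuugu
miR-152-3p: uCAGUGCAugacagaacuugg
No other mature miRNA among the 1679 named in the RefSeq table carried this seed. With positions counted from 1 at the 5′ end and Mir148a given first, the 3p arm of Mir148b differed from that of Mir148a by C9U and U10C, and the other 20 of 22 positions were the same. The 3p arm of Mir152 is 21 bases long and differed from that of Mir148a by C9U, U10G and U20G. All of these differences lie outside the seed.

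The 5p arms differ more, and their seeds divide the family. The arms are shown in the same way, with the seed in capitals.
miR-148a-5p: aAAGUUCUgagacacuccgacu
miR-148b-5p: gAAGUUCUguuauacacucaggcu
miR-152-5p: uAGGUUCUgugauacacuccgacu
Those of Mir148a and Mir148b share the seed AAGUUCU, while that of Mir152 has AGGUUCU, which no other mature miRNA in the table carried. Compared position by position without gaps, the 5p arms of Mir148a and Mir148b were the same at 13 of 22 positions. How the counts of each gene divide between its 5p and 3p arms was not measured.

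Near-identical copies, which make reads map to several places, are a limit for many miRNA genes because multimapping reads enter no gene count here. The longest exact run that Mir148a shared with any of the 1004 other RefSeq hairpins was 15 bases, with Mir148b. Mir152 shared at most 13 bases with another hairpin. Each of the 6 mature sequences was found in the transcripts of its own gene only, among all GENCODE M21 transcripts. The rest of the genome was not searched, and reads with mismatches could still have been assigned elsewhere.

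Dnmt1 and Abca1, whose products are named above as targets, hold the seed match in this mouse annotation. The motif TGCACTG, the complement of the seed, was searched on the transcript strand of the 3' untranslated region of 1 transcript per gene, and it was present in 2417 of 21037 genes (11.5%). The longer TGCACTGA, which contains it and adds an A opposite base 1 of the miRNA, was present in 685 genes (3.26%). The windows below are DNA on mm10, with the match in capitals, and show the sites of Dnmt1 and Abca1, the genes named above.
Dnmt1, chr9:20907487-20907513, minus strand: acccagagccccacgTGCACTGAtgtt
Abca1 first site, chr4:53033878-53033904, minus strand: agcgaggtcttccttTGCACTGtgtca
Abca1 second site, chr4:53030969-53030995, minus strand: taatggatctattttTGCACTGgaata
The longer form was present in Dnmt1, and the 2 sites of Abca1 hold the shorter form only. The region searched was 312 bases long in Dnmt1 and 3156 in Abca1, against a median of 801 over all genes searched. The shares over all genes were not matched for length. The untranslated region of Dnmt3b, another DNA methyltransferase gene, held neither motif in the transcript searched. These matches describe sequence only, and messenger RNAs were not measured in these libraries.

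The libraries differed in depth. Sense counts on miRNA genes came to 2177048 in replicate 2 and 865419 in replicate 1, which were 18.1% and 12.6% of all reads, while 71.0% and 80.7% of reads were multimapping. The striated muscle markers held 10.4% of gene counts in replicate 2 and 4.07% in replicate 1, and none of the 7 genes of that list was at 0 in both libraries. Nearly all of these counts were of Mir206, with 224741 of 225401 in replicate 2 and 34953 of 35261 in replicate 1. The other 6 genes summed to 303 CPM in replicate 2 and 356 CPM in replicate 1. Among them are Mir1a-1 and Mir1a-2, and Mir133a-1 and Mir133a-2, which are copies annotated at separate places. Reads that match more than 1 copy are missing from these values, which can therefore be lower bounds. The part held by Mir206 thus describes counted reads only, and low levels of the copied genes do not show that their miRNAs were scarce. Levels are given as CPM, counts per 1000000 gene counts of the library, and intervals are exact 95% Poisson intervals that cover counting error only.

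All members were detected in both libraries, at levels near the middle of the miRNA genes that were tested. Mir152 had 259 counts in replicate 2 and 103 in replicate 1, or 119 CPM in each. The intervals were 105 to 134 CPM in replicate 2 and 97.1 to 144 CPM in replicate 1. Mir148b had 190 counts in replicate 2 and 69 in replicate 1, or 87.3 CPM (75.3 to 101) and 79.7 CPM (62 to 101). For both genes, the values of the libraries lay inside each other's counting intervals.

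Of the 3 members, Mir148a had the largest gap between the libraries. It had 211 counts in replicate 2 and 43 in replicate 1, which correspond to 96.9 CPM (84.3 to 111) and 49.7 CPM (36.0 to 66.9). The intervals of the libraries did not overlap, with replicate 2 the higher. They rest on scaling by library totals, and the other scalings given below narrowed the gap. No antisense read was counted on any member in either library, and the unstranded and sense counts of each member were equal.

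**Figure D1:**
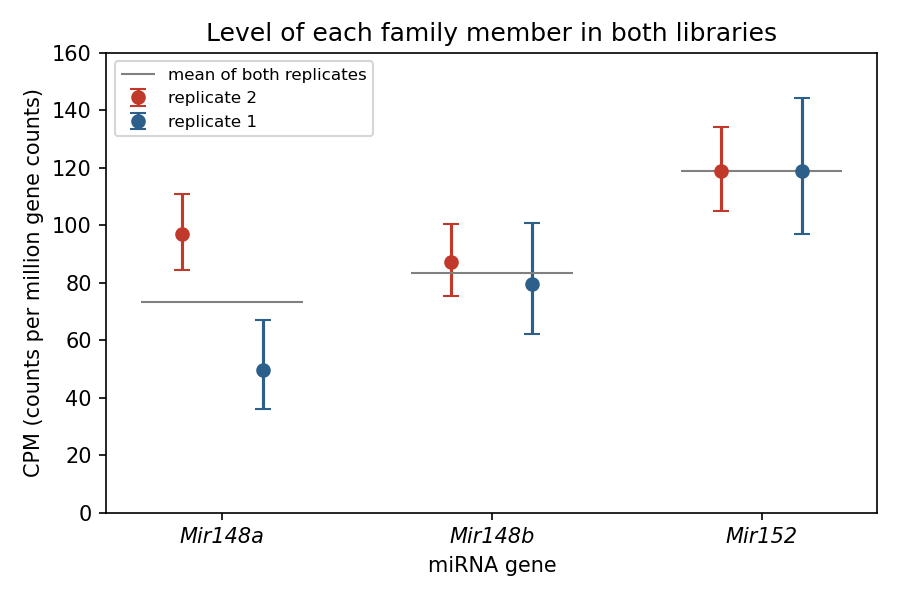
CPM of Mir148a, Mir148b and Mir152 in replicate 2 (left point of each pair) and replicate 1 (right point), with exact 95% Poisson intervals as bars and the mean of both as a grey line. Mir152 stood at 119 CPM in both libraries, while Mir148a reached 96.9 CPM in replicate 2 against 49.7 CPM in replicate 1.

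As a mean over both libraries, Mir152 stood at 119 ± 0.035 CPM, Mir148b at 83.5 ± 5.33 CPM and Mir148a at 73.3 ± 33.4 CPM (SD, n = 2). With 2 values, the small SD of Mir152 says little, since its counting intervals are far wider than the gap between its libraries. Together the members held 660 counts in replicate 2 and 215 in replicate 1, or 303 CPM (280 to 327) and 248 CPM (216 to 284). The family therefore made up 0.0303% of gene counts in replicate 2 and 0.0248% in replicate 1.

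The hairpins differ in annotated length, so levels of different genes were also compared per base. The annotated mature arms are 21 to 24 bases long in all members. Scaling by hairpin length therefore raises Mir152, which has the shortest hairpin, relative to the others. Per 100 bases of annotated hairpin, 99 bases long for Mir148a, 97 for Mir148b and 73 for Mir152, the mean level was 163 ± 0.048 CPM for Mir152, 86.1 ± 5.50 CPM for Mir148b and 74.0 ± 33.7 CPM for Mir148a (SD, n = 2). Among the 305 genes whose counts averaged 10 or more, called tested genes here, the median on the same scale was 108 CPM per 100 bases. By this scale Mir152 ranked 133, Mir148b 159 and Mir148a 168 among tested genes. By plain mean CPM the ranks were 142, 152 and 159.

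**Figure D2:**
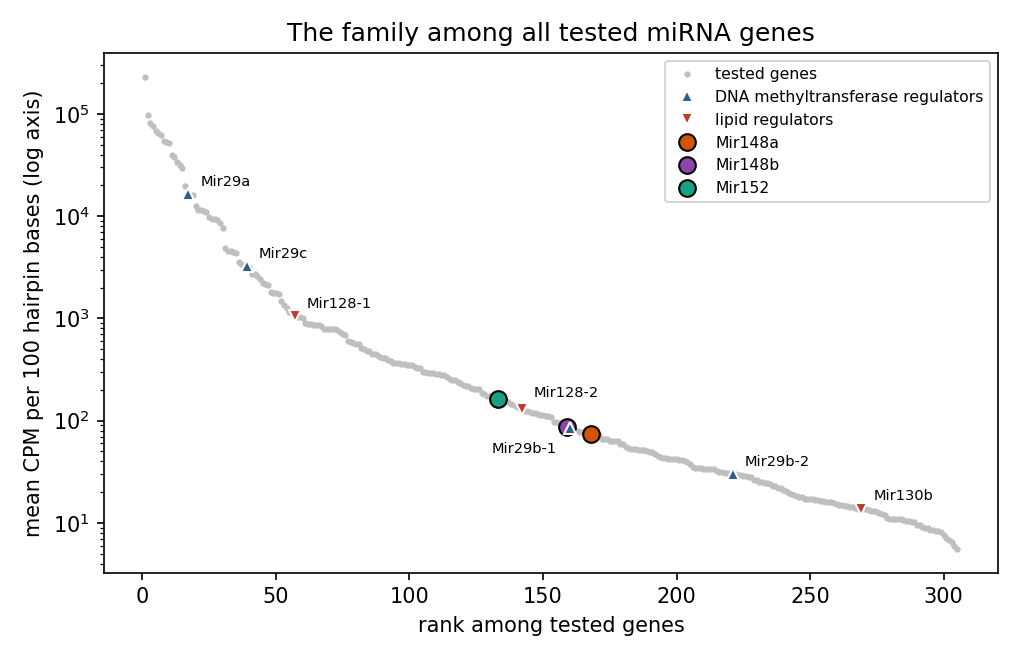
Mean CPM per 100 bases of annotated hairpin (log axis) against rank for the 305 tested miRNA genes, with the family and 2 lists of other regulators marked. Mir152, Mir148b and Mir148a lie at ranks 133, 159 and 168, close to the middle of the tested genes.

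Mir152 was the most abundant member in both libraries. Per hairpin base, Mir152 exceeded Mir148b 1.81-fold in replicate 2 (interval 1.5 to 2.2) and 1.98-fold in replicate 1 (1.45 to 2.73), a mean log2 ratio of 0.92 ± 0.09 (SD, n = 2). This SD was the smallest among the pairs, but with 2 values it says little. The counting intervals are wider than the gap between the libraries. Without scaling by length the ratio was 1.36 in replicate 2 (1.13 to 1.65) and 1.49 in replicate 1 (1.09 to 2.06). The mean log2 ratio was then 0.51, still toward Mir152. Mir152 exceeded Mir148a 1.66-fold in replicate 2 (1.38 to 2.01) and 3.25-fold in replicate 1 (2.26 to 4.75) on the per-base scale. Without scaling by length these ratios were 1.23 (1.02 to 1.48) and 2.40 (1.66 to 3.50).

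The order of Mir148b and Mir148a was not the same in both libraries. Per hairpin base, the ratio of Mir148b over Mir148a was 0.919 in replicate 2 (0.751 to 1.12) and 1.64 in replicate 1 (1.1 to 2.46). The mean log2 ratio of 0.29 ± 0.59 (SD, n = 2) was smaller than its spread, so these neighbours in the order did not differ beyond the spread of the libraries. As shares of the family's counts, Mir148a made up 32.0% in replicate 2 (28.4 to 35.7, exact Clopper-Pearson) and 20.0% in replicate 1 (14.9 to 26.0). Mir152 made up 39.2% in replicate 2 (35.5 to 43.1) and 47.9% in replicate 1 (41.1 to 54.8).

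**Figure D3:**
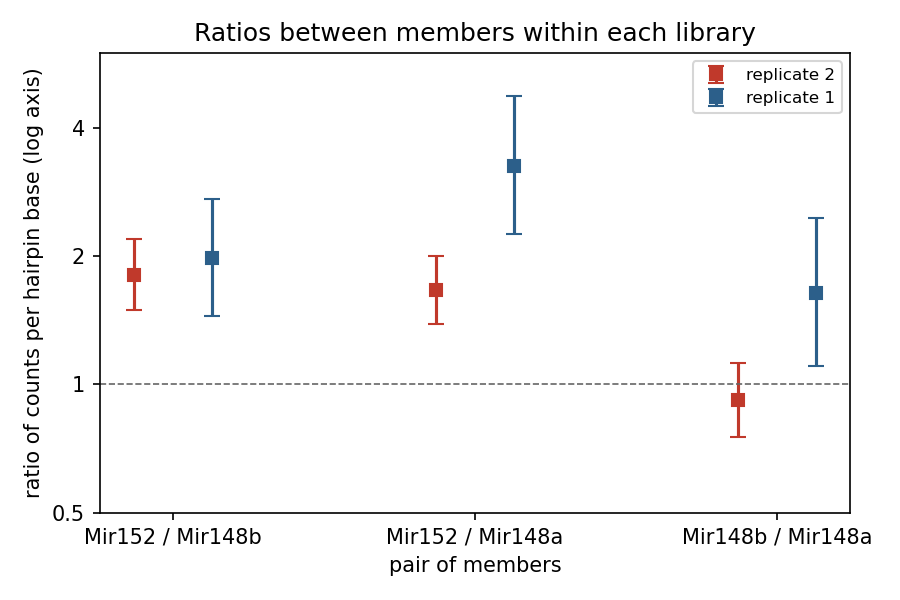
Ratio of counts per hairpin base (log axis) for each pair of members in replicate 2 (left) and replicate 1 (right), with exact 95% intervals as bars. Mir152 lies above both other members in each library, while the ratio of Mir148b over Mir148a is 0.919 in replicate 2 and 1.64 in replicate 1.

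Between the libraries, the counts of each tested gene were set against those expected from the library totals in an exact conditional binomial test, two-sided and Benjamini-Hochberg adjusted over all 305 genes. Calls required an adjusted p below 0.05 together with a ratio of 2 or more in either direction. The test compares these 2 libraries and their counting error, not animals. Of all tested genes 33.8% were called, 26.9% as higher in replicate 2 and 6.89% as higher in replicate 1. Those were 82 and 21 genes with library totals, against 66 and 32 with TMM factors and 58 and 39 with DESeq2 size factors. Of the 3 members, none was called.

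With library totals, Mir148a lay just short of the ratio threshold. Its CPM ratio of replicate 2 over replicate 1 was 1.95 (interval 1.40 to 2.77, exact binomial test with Benjamini-Hochberg adjusted p = 5.48e-05), a log2 ratio of 0.96. The interval includes the threshold of 2, so the absence of a call does not show a smaller difference. An adjusted p under 0.05 was common between these libraries, since 67.9% of tested genes had one when no ratio was required, 46.9% with the higher level in replicate 2. The absolute log2 ratio of Mir148a exceeded that of 185 of the other tested genes (60.9%). With TMM factors the CPM ratio of Mir148a was 1.60 (interval 1.15 to 2.28), and with DESeq2 size factors it was 1.46 (1.05 to 2.08).

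Mir148b and Mir152 were close in both libraries. Mir148b had a ratio of 1.09 (interval 0.827 to 1.46, exact test, adjusted p = 0.636), and Mir152 had a ratio of 1.00 (0.793 to 1.27, adjusted p = 1). No tested gene had a smaller absolute log2 ratio than Mir152, and 34 had a smaller one than Mir148b. Over all tested genes the median log2 ratio was 0.43 and the quartiles were -0.14 and 1.28, so Mir148b and Mir152 lay inside that range and below its median. Other scalings moved every ratio, and put the median of tested genes at 0.15 with TMM and 0.02 with DESeq2 size factors. With TMM the log2 ratio was -0.15 for Mir148b and -0.28 for Mir152, and with DESeq2 size factors it was -0.29 and -0.42.

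**Figure D4:**
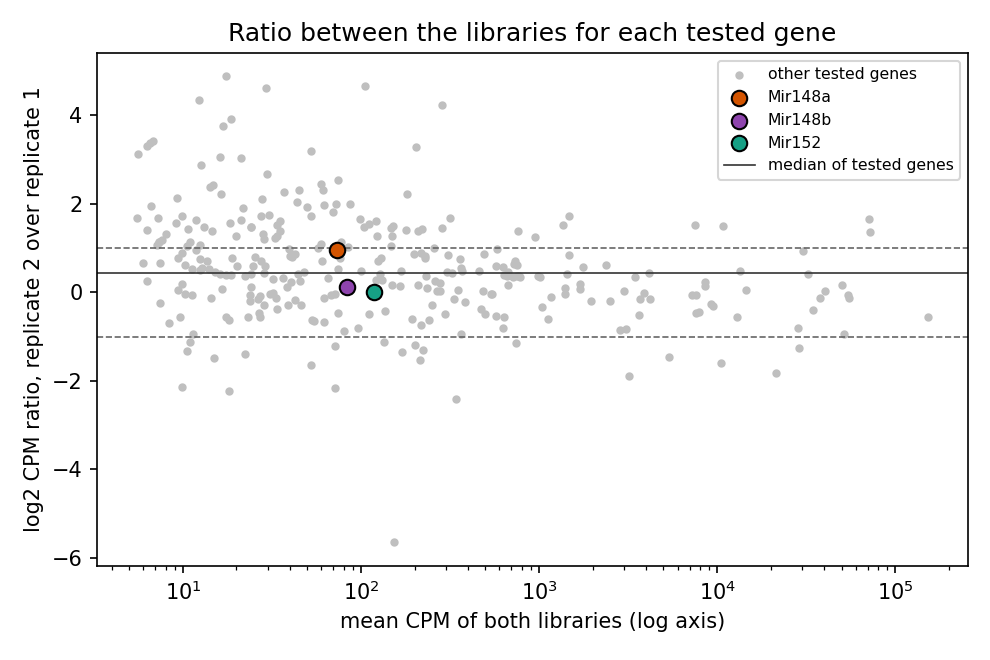
Log2 CPM ratio of replicate 2 over replicate 1 against mean CPM (log axis) for the 305 tested genes, with the family in colour, dashed lines at the 2-fold threshold and a solid line at the median of tested genes. Mir148a lies at 0.96, beside the upper dashed line, and Mir148b and Mir152 lie near 0.

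Marker lists of other cell types and tissues, among them liver, where Mir148a is also abundant, differed between the libraries to unequal degrees. The liver list, Mir122 alone, had 207 counts in replicate 2 and 9 in replicate 1, or 95.1 CPM and 10.4 CPM. The 4 pancreas genes summed to 44.6 CPM in replicate 2 and 38.1 CPM in replicate 1, and 2 of them were at 0 in both libraries. The endothelial and leukocyte lists had sum ratios of replicate 2 over replicate 1 of 1.12 (1.11 to 1.13) and 1.11 (1.07 to 1.15). All endothelial counts were of Mir126a, since Mir126b had 0 in both libraries. Of the 6 leukocyte genes, 4 were not called. The other 2, Mir142 with a ratio of 0.39 and Mir223 with 0.44, were called higher in replicate 1. The 2 slow fibre genes summed to 956 CPM in replicate 2 and 181 CPM in replicate 1, and both were called higher in replicate 2. The 2 smooth muscle genes ran the other way, which summed to 37985 CPM in replicate 2 against 75404 CPM in replicate 1, with 1 of them called. The 4 fibroblast genes summed to 1383 CPM in replicate 2 and 633 CPM in replicate 1, with 1 tested member called in each direction. Most of these counts were of Mir214, with 2906 of 3010 in replicate 2 and 488 of 548 in replicate 1. Mir199a-1 and Mir199a-2 are copies annotated at separate places, so their counts can be lower bounds. The part held by Mir214 thus describes counted reads only. Mir199a-1, Mir199a-2 and Mir199b each had a lower CPM in replicate 2. These calls stand beside 26.9% of all tested genes called higher in replicate 2 and 6.89% called higher in replicate 1. The part of these lists in the Mir148a difference was not tested. In bulk tissue, fewer cells of a type and less RNA per cell cannot be told apart.

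By position, Mir148b and Mir152 are intronic and Mir148a is intergenic. Mir148b lies in the first intron of Copz1 and Mir152 in the first intron of Copz2, each on the strand of its host. These genes encode alternative zeta subunits of the COPI coat, which covers vesicles that move between the Golgi and the endoplasmic reticulum. In the principal transcript of Copz2, the intron is 676 bases long and Mir152 begins 523 bases from the start of the gene. In that of Copz1, the intron is 16159 bases long and Mir148b begins 12411 bases from the start of the gene. Mir148a overlaps no other annotated gene. Host messenger RNAs were not measured in these libraries, so how the members follow their hosts was not tested.

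**Figure D5:**
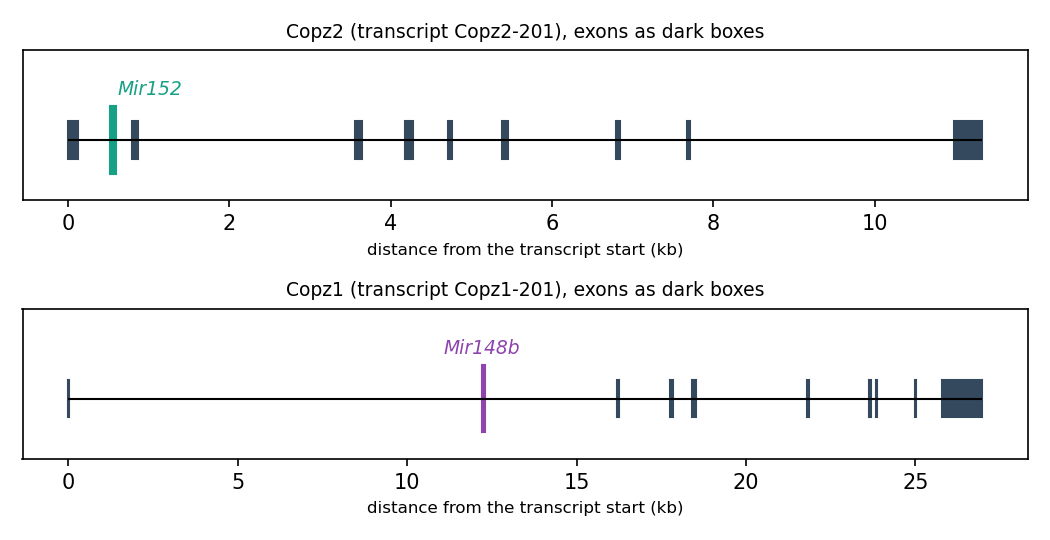
Principal transcripts of Copz2 (above) and Copz1 (below) as distance from the transcript start in kb, with exons as dark boxes and the hairpin in colour, whose outline makes it look slightly wider than it is. Both hairpins lie in the first intron, of 676 bases in Copz2 and of 16159 bases in Copz1.

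The 3 loci also share a type of neighbouring gene. Each has a gene of the Nfe2 family, which encodes transcription factors of the basic leucine zipper class, close by: Nfe2l1 at 20.4 kb from Mir152, Nfe2 at 26.7 kb from Mir148b and Nfe2l3 at 162.8 kb from Mir148a. The Hox gene nearest to Mir148b was Hoxc4, at 248.3 kb, and that nearest to Mir152 was Hoxb1, at 482.1 kb. Hox genes were not searched for near Mir148a, but Mir196b, a miRNA of a Hox locus, lies 960.2 kb from it on chromosome 6. The other Nfe2 family gene, Nfe2l2, lies on chromosome 2, where no member lies.

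The nearest annotated miRNA genes differed widely in level. On the Hox side, Mir615 near Mir148b averaged 791 ± 248 CPM per 100 hairpin bases and Mir10a near Mir152 averaged 3307 ± 818 (SD, n = 2). Both means are higher than those of the members on the same scale. On the other side, Mir6963 beside Mir148b had 0 counts in both libraries and Mir8103 beside Mir152 had 13 counts in replicate 2 and 2 in replicate 1. Mir6371 and Gm22914, the miRNA genes on either side of Mir148a, had 0 counts in both libraries. The floor of 3 counts used here for a count of 0 equals 1.38 CPM in replicate 2 and 3.47 CPM in replicate 1.

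The genes most like each member were found as the smallest Euclidean distance of log2 CPM over both libraries, which reflects level and ratio in only 2 points. Mir138-1 at a distance of 0.14 and Mir700 at 0.19 were nearest to Mir148a. Mir7-1 at 0.33 and Mir345 at 0.38 were nearest to Mir148b. Mir483 at 0.20 and Mir15b at 0.27 were nearest to Mir152. These 6 genes lie on 6 other chromosomes, and Mir138-1 alone was called, as higher in replicate 2 with 232 counts against 42 in replicate 1. Mir138-1 and Mir7-1 have further copies in the genome, so their counts can be lower bounds.

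Other miRNAs with related targets were counted at widely different levels. The Mir29 genes, known for lowering the DNA methyltransferases DNMT3A and DNMT3B in human cells, summed to 16945 CPM in replicate 2 and 17927 CPM in replicate 1. Mir29a led with 32202 counts in replicate 2 against 12283 in replicate 1, a mean of 16469 ± 481 CPM per 100 hairpin bases (SD, n = 2). Mir29c had 4455 counts in replicate 2 and 3178 in replicate 1. Of the 4 genes, 1 was called, Mir29b-1, as higher in replicate 2 with 178 counts against 33 in replicate 1, beside 33.8% called among all tested genes. TMM and DESeq2 size factors lost that call and called Mir29c higher in replicate 1. The median log2 ratio of these 4 was 0.09, against 0.43 over all tested genes. Mir29b-1 and Mir29b-2 share 25 bases and Mir29c shares 22 with Mir29b-1, so the levels of these 3 can be lower bounds.

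Among miRNAs known, like miR-148a, for acting on cholesterol and lipid metabolism, Mir128-1 was the most abundant. It had 1977 counts in replicate 2 against 483 in replicate 1, a mean of 1047 ± 354 CPM per 100 hairpin bases (SD, n = 2), higher than any member of the Mir148 and Mir152 family on that scale. Mir128-2 had 325 counts in replicate 2 against 41 in replicate 1, a ratio of 3.15 (2.27 to 4.47), and was the 1 gene called of 3 tested, as higher in replicate 2, a share close to the 33.8% called among all tested genes. Mir128-1 and Mir128-2 share 23 bases, so both levels can be lower bounds. Mir130b had 24 counts in replicate 2 and 10 in replicate 1. Mir33, which lies in an intron of the sterol regulator gene Srebf2, had 7 counts in replicate 2 and 4 in replicate 1, and Mir301b had 0 in both. The median log2 ratio of the 3 tested genes was 0.70, against 0.43 over all tested genes.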

How the data were processed

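The deposited files hold counts of reads per miRNA gene, made by the authors on mm10 with the GENCODE annotation M21, per the deposited README. Which aligner, counter and adapter trimming were used is not given in the sources used here. The 3 count columns carry no header, and from their values they are unstranded, sense and antisense counts. Sense counts were used. The 4 tallies, among them multimapping reads, stayed out of library totals and tests.

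CPM, the exact binomial test and its intervals were computed with Python 3.11.15, NumPy 2.4.6, SciPy 1.17.1 and pandas 2.3.3, and the test was checked on simulated counts. A count of 0 entered ratios as 3 counts. TMM came from edgeR 4.0.16 and size factors from DESeq2 1.42.0 in R 4.3.3. Sites were searched in the transcript with the longest coding sequence of each gene. Intervals and floors cover counting error alone: with no molecular identifiers, reads are not independent molecules.

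The members and lists were chosen with earlier results of these data known. Named genes were the members, the 2 nearest profiles and adjacent miRNA genes of each, the Mir29 and lipid lists, hosts, opposite-strand genes and miRNAs of the same seed, of which the last 2 kinds were not found. Positions near Hox and Nfe2 genes and the target sites were added after the data were seen. Some items are not reported here.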

Additional observations from a re-analysis of the deposited data

How the results depend on the processing

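No member was called by the exact binomial test under any alternative that keeps the 2-fold threshold. The log2 ratio of Mir148a ranged over the alternatives down to 0.55 with DESeq2 size factors, where its adjusted p was 0.041, and that of Mir152 reached -0.42 with an adjusted p of 0.026. The log2 ratio of Mir148b changed sign, at -0.15 with TMM and -0.29 with DESeq2 size factors. Over the tested genes, a mean of at least 100 counts gave 50 calls, 37 higher in replicate 2 and 13 in replicate 1, and no ratio threshold gave 207, 143 and 64. TMM gave 66 higher in replicate 2 and 32 in replicate 1, and DESeq2 size factors gave 58 and 39, against 82 and 21 with totals. In unstranded counts, whose totals are smaller, mean CPM was 109 for Mir148b and 155 for Mir152. Without the top gene in the totals they were 98.5 and 141. For Mir152, TMM gave 119.6 and DESeq2 size factors 120.2, a larger shift than its very small SD. Mir152 over Mir148b was 0.51 on the log2 scale without length scaling. With 1 library left out, mean CPM ran from 49.7 to 96.9 for Mir148a, 79.7 to 87.3 for Mir148b and 118.97 to 119.02 for Mir152. Log2 ratios per base ran from 0.86 to 0.99 for Mir152 over Mir148b, 0.74 to 1.70 for Mir152 over Mir148a and -0.12 to 0.71 for Mir148b over Mir148a, whose sign rests on replicate 1. In the Mir29 list the call of Mir29b-1 was lost with TMM and DESeq2 size factors, which called Mir29c higher in replicate 1. No paired analysis was possible because the series has 1 group.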
